A study of Mus musculus with 9 samples.

Results

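Aldehyde dehydrogenases were followed in mouse liver through 10 genes, Aldh1a1, Aldh1a7, Aldh1b1, Aldh2, Aldh3a2, Aldh4a1, Aldh6a1, Aldh7a1, Aldh8a1 and Aldh9a1. They were chosen by name, by an exact match of the symbol in the deposited table of 35275 entries, and each had 1 row. All 10 were among the 13151 genes with enough counts to be tested. Total RNA of liver was sequenced in 9 libraries of C57BL/6 mice in 3 groups of 3. The groups were AdipoRonPEG5, a PEGylated form (carrying polyethylene glycol) of the small-molecule adiponectin receptor agonist AdipoRon, then AdipoRon itself, and PBS vehicle. The labels give 5 mg/kg and 2 injections a day for 5 days, in a sentence that covers PBS too, which leaves it unclear what each compound was given at. No genetic change is named for any group, and age, sex and diet are not given for these mice. A further compound named in the protocol, AdipoRonPEG6HTL, was not analysed here. The labels do not say that the libraries of a group came from separate animals, so the p-values measure the spread between these libraries, which may be technical.

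Aldehyde dehydrogenases oxidize reactive aldehydes to carboxylic acids, with NAD or NADP as the electron acceptor. In liver they remove acetaldehyde made from ethanol and aldehydes made from lipids, and they carry out set steps in the making of retinoic acid and carnitine and in the breakdown of amino acids. The family spans the cytosol, the mitochondria and the endoplasmic reticulum, and several members act as a step that follows an alcohol dehydrogenase or an amino acid oxidase.

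AdipoRonPEG5 livers held more mRNA of Aldh1a1, the cytosolic enzyme that turns retinaldehyde into retinoic acid, and of its close relative Aldh1a7, and less of Aldh4a1, the mitochondrial enzyme that ends proline breakdown. Aldh1a1 was 2.20-fold higher with AdipoRonPEG5 than with vehicle, Aldh1a7 1.42-fold higher and Aldh4a1 24.1% lower. Of the 10 genes, 2 rose, 1 fell and 7 did not pass, at a Benjamini-Hochberg adjusted p of 0.05 in edgeR's quasi-likelihood test over all 13151 genes. The same test called 17.2% of all genes, 9.55% higher and 7.63% lower. The median log2 fold change was -0.025 over the 10 genes, and -0.0013 over all genes tested. With AdipoRon, 0 of the 10 genes passed against vehicle.

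Library totals were 13942322 to 18508950 counts in 8 libraries and 39473195 in vehicle 1, and the lowest count of any of the 10 genes in any library was 469. All 10 hepatocyte markers examined were present, with sums of 89459.8 to 99140 CPM (counts scaled to a common library total with TMM factors) in AdipoRonPEG5, 83646 to 89026 CPM in AdipoRon and 97515 to 104075 CPM in vehicle livers. Among these hepatocyte markers 0 rose and 2 fell with AdipoRonPEG5 against vehicle, and 0 passed with AdipoRon against vehicle. Of 12 macrophage and Kupffer cell markers, 12 rose with AdipoRonPEG5 against vehicle and 11 with AdipoRon against vehicle. Their sum was 781 to 790.4 CPM in AdipoRonPEG5, 490.2 to 859 CPM in AdipoRon and 203 to 294 CPM in vehicle livers. Of 6 tested lymphocyte markers 3 rose with AdipoRonPEG5 against vehicle (Cd79a, Cd79b and Cd3e), and 2 with AdipoRon against vehicle. Those 3 genes were near the floor in vehicle livers, at 0.0257 to 0.334 CPM. The number of lymphocyte markers that rose with AdipoRonPEG5 against vehicle ran from 0 to 4 over the alternative settings. The sum of the 9 on the list was 5.67 to 7.34 CPM in AdipoRonPEG5, 3.76 to 6.66 CPM in AdipoRon and 1.26 to 2.19 CPM in vehicle livers. Of 2 tested adipose markers Cfd fell (-4.12 in log2, edgeR adjusted p = 0.0384), at 0.0617 to 0.363 CPM in AdipoRonPEG5, 0.778 to 5.33 CPM in AdipoRon and 0.298 to 6.63 CPM in vehicle livers, and Lep had 0 counts in every library. Cfd was near the floor in AdipoRonPEG5 livers, its AdipoRonPEG5 and vehicle ranges overlapped, and limma-voom called 0 of the 2 adipose markers. Of 10 stellate cell markers 1 rose (Col1a2), and of 9 endothelial markers 1 rose (Cdh5). The part of these markers in the results below was not tested. In whole liver, fewer cells of a type and less RNA per cell cannot be told apart. Vehicle 3 and AdipoRonPEG5 1 stood apart in 14 acute phase genes, whose sum was 29294 CPM in AdipoRonPEG5 1 and 40497 CPM in vehicle 3, against 18107 and 18395 CPM in the other AdipoRonPEG5 libraries, 11842 to 15124 CPM in AdipoRon and 10488 and 11279 CPM in the other vehicle libraries.

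Aldh1a1 was at 2802, 2791 and 3011 CPM in the AdipoRonPEG5 libraries, 1263, 1026 and 1546 CPM in the AdipoRon libraries, and 1675, 1348 and 881 CPM in the vehicle libraries. Every AdipoRonPEG5 library was above every AdipoRon and every vehicle library, whereas the ranges of AdipoRon and vehicle overlapped. Aldh1a1 rose with AdipoRonPEG5 against vehicle (by 1.14 ± 0.21 (SE) in log2, 95% confidence interval 0.68 to 1.60, Benjamini-Hochberg adjusted p = 0.00499 in edgeR). The call held in all 19 alternative settings, with log2 fold changes of 0.92 to 1.36 and adjusted p up to 0.0212. The spread within a group differed too: the coefficient of variation of Aldh1a1 was 4.34% in AdipoRonPEG5, 20.4% in AdipoRon and 30.7% in vehicle livers, a description with no test. Vehicle 3, the library highest in acute phase genes, had the lowest Aldh1a1, at 65.4% of its group's median, and without it the log2 fold change was 0.92.

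Aldh1a7, a rodent gene closely related to Aldh1a1, was at 214, 208 and 221 CPM in the AdipoRonPEG5 libraries, 166, 116 and 149 CPM in the AdipoRon libraries, and 166, 138 and 151 CPM in the vehicle libraries. Here too the AdipoRonPEG5 libraries lay above all the others. Aldh1a7 rose with AdipoRonPEG5 against vehicle (by 0.50 ± 0.12 (SE) in log2, 95% confidence interval 0.23 to 0.77, Benjamini-Hochberg adjusted p = 0.0173 in edgeR). The call ended without AdipoRonPEG5 3 (0.48, adjusted p = 0.0579), without vehicle 2 (0.43, adjusted p = 0.0744), and without vehicle 3 and AdipoRonPEG5 1 together (0.50, adjusted p = 0.0587). The transcripts of Aldh1a1 and Aldh1a7 in GENCODE release M21 are 88.96% identical over 2075 aligned columns. Of the 50-base stretches of each, 7.54% of those of Aldh1a1 and 7.49% of those of Aldh1a7 occur in both, and 1 of their 100-base stretches does. The rule for reads that match both genes is not stated, so their counts are not fully separate. The ratio of Aldh1a1 to Aldh1a7 in FPKM (fragments scaled by gene length and library total, deposited by the authors) was 13.2 to 13.7 in AdipoRonPEG5, 7.65 to 10.5 in AdipoRon and 5.89 to 10.2 in vehicle livers, and the AdipoRonPEG5 range did not overlap the others.

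The bases before the starts of these genes are shown because they were the 2 members that rose, and because the windows share a long identical run. RefSeq promoters (GRCm38.p6) were found for 8 of the 10 members, as 10 windows of 250 bases before a start, and none for Aldh2 and Aldh7a1. The window of Aldh1a1 is chr19:20601718-20601967 on the plus strand, before the second of its 2 starts, and that of Aldh1a7 is chr19:20727557-20727806 on the minus strand. Both are printed 5′ to 3′ along the gene, with the 65-base run that is identical in both in capitals.
Aldh1a1: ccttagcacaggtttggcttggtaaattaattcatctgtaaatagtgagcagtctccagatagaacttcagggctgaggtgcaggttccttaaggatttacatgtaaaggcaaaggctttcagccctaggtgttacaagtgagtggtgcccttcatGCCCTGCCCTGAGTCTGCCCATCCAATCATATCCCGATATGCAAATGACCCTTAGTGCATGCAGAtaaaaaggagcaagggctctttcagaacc
Aldh1a7: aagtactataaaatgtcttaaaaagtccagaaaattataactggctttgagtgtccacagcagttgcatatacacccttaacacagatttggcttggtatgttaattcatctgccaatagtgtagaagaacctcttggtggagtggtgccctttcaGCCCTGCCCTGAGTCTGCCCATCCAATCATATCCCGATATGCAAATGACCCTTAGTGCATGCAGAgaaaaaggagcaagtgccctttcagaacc
The identical run covers bases -94 to -30 before the start in both, and the whole windows are 68.01% identical over 272 aligned columns. The window before the other Aldh1a1 start is 53.92% identical to that of Aldh1a7, and the longest run shared is 8 bases. Within the capitals both windows hold the octamer ATGCAAAT at base -56 and CCAAT at base -72, on the printed strand. The octamer is in 1.6% of all 32851 RefSeq windows of this length, on either strand, and CCAAT in 33.8%. Aldh8a1 holds the octamer too, at base -58, and its mRNA did not pass the test in any comparison.

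Other letters were searched on both strands in the same windows. TGACNNNGC, the core of the antioxidant response element, was found in the window of Aldh9a1 and of no other member, and is in 10.2% of all windows. TGACTCA, an AP-1 site that can overlap it, was found before the other Aldh1a1 start, and is in 4.46%. CACGTG was found in the window of Aldh3a2, and is in 6.02%. The direct repeat with 1 base between its repeats that PPAR dimers bind was in none of the 10 windows, and is in 0.0335% of all. These matches describe letters in 250 bases, not sites in use.

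**Figure D1:**
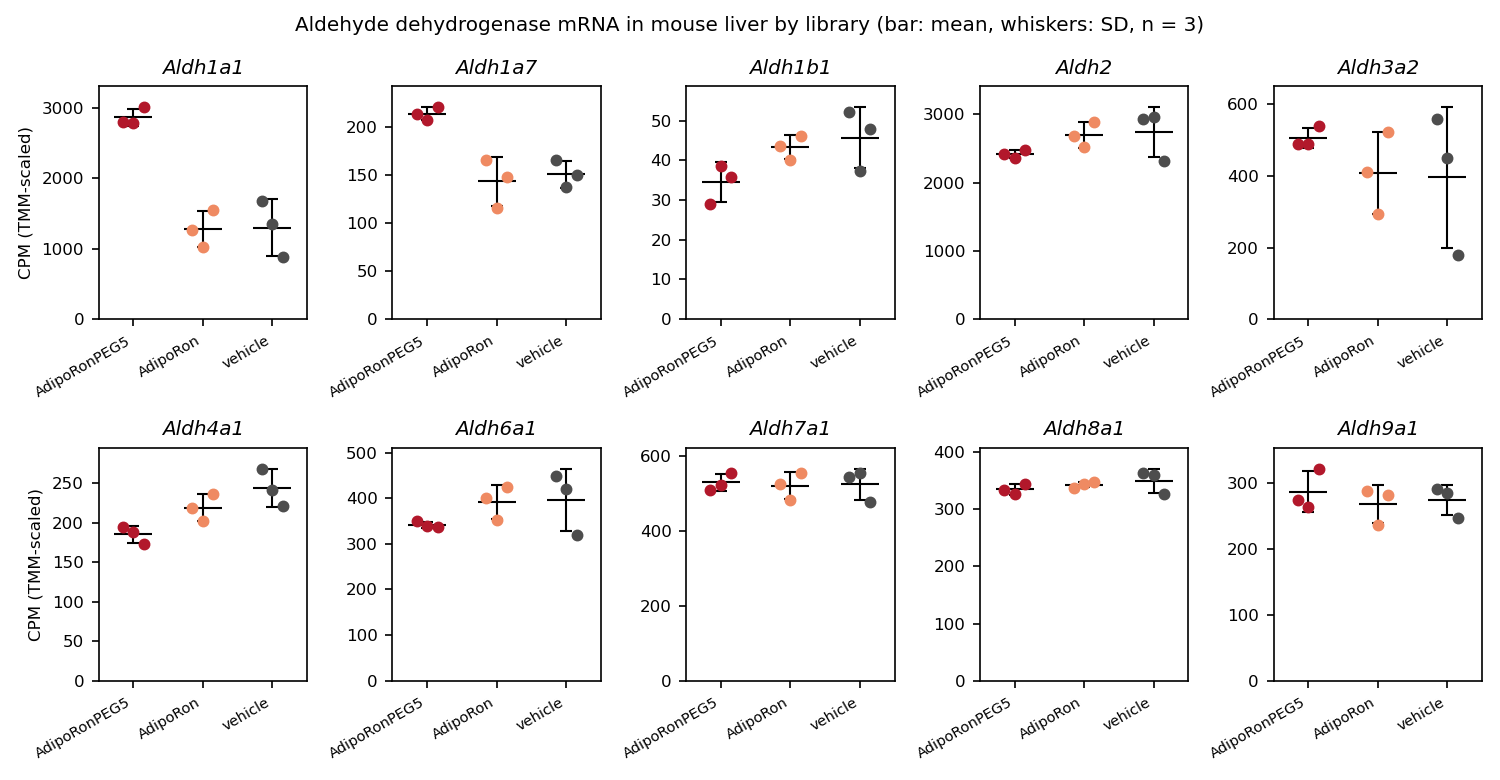
Level of each of the 10 aldehyde dehydrogenases in the 9 libraries, in TMM-scaled CPM (y axis, each panel on its own scale from 0). Points are libraries, the bar is the mean and the whiskers are the SD of 3 libraries. The 3 AdipoRonPEG5 points of Aldh1a1, at 2791 to 3011 CPM, lie above all AdipoRon and vehicle points, and those of Aldh4a1, at 173 to 194 CPM, lie below them.

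Aldh2, Aldh1b1 and Aldh3a2, which act on acetaldehyde and lipid aldehydes, did not pass against vehicle. Aldh2, the mitochondrial enzyme that clears most acetaldehyde, was at 2416, 2354 and 2474 CPM in the AdipoRonPEG5 libraries, 2684, 2519 and 2892 CPM in the AdipoRon libraries, and 2931, 2965 and 2312 CPM in the vehicle libraries. The AdipoRonPEG5 values lay below all AdipoRon values, above vehicle 3 and below the other vehicle libraries. The log2 fold change of Aldh2 with AdipoRonPEG5 against vehicle was -0.18 (95% confidence interval -0.43 to 0.069, Benjamini-Hochberg adjusted p = 0.31 in edgeR), and without vehicle 3 it was -0.29 and passed (adjusted p = 0.0389). Aldh1b1, a mitochondrial relative of Aldh2 that also accepts acetaldehyde, was at 28.9, 38.6 and 35.9 CPM in the AdipoRonPEG5 libraries, 43.6, 40.05 and 46.2 CPM in the AdipoRon libraries, and 52.1, 37.2 and 47.8 CPM in the vehicle libraries. Vehicle 2 lay within the AdipoRonPEG5 range. Its log2 fold change against vehicle was -0.41 ± 0.13 (SE), which missed the threshold (edgeR adjusted p = 0.059) and passed without a filter on low counts (0.0297), with DESeq2 (0.0373) and without vehicle 2 (0.0234).

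Aldh3a2, the fatty aldehyde dehydrogenase of the endoplasmic reticulum, was at 489.5, 489.9 and 539 CPM in the AdipoRonPEG5 libraries, 411, 293 and 522 CPM in the AdipoRon libraries, and 559, 451 and 178 CPM in the vehicle libraries. Vehicle 3 held 39.5% of its group's median, the widest departure of any member in any library, and the vehicle libraries lay on both sides of the AdipoRonPEG5 ones. The log2 fold change of Aldh3a2 against vehicle was 0.35 (95% confidence interval -0.37 to 1.08, Benjamini-Hochberg adjusted p = 0.507 in edgeR), and it was 0.00034 without vehicle 3. Its interval allows a change of more than 2-fold. Within the vehicle and AdipoRon groups, the libraries stood in the same order for Aldh3a2 as for Aldh1a1.

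Among the members that act in amino acid breakdown, Aldh4a1 fell. It was at 194, 189 and 173 CPM in the AdipoRonPEG5 libraries, 219, 202 and 236 CPM in the AdipoRon libraries, and 269, 242 and 221 CPM in the vehicle libraries. The AdipoRonPEG5 values lay below all others, and AdipoRon and vehicle overlapped. The log2 fold change against vehicle was -0.40 ± 0.095 (SE) (95% confidence interval -0.61 to -0.19, Benjamini-Hochberg adjusted p = 0.0164 in edgeR). The call ended with total-count scaling (-0.31, adjusted p = 0.0685), without AdipoRonPEG5 2 (-0.41, adjusted p = 0.0509), without AdipoRonPEG5 3 (-0.35, adjusted p = 0.0615) and without vehicle 1 (-0.33, adjusted p = 0.0551). In GENCODE release M21, 42.6% of the 100-base stretches of Aldh4a1 also occur in the gene model Gm21969, whose entry had 0 to 2 counts per library, so the level of Aldh4a1 is uncertain.

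Aldh6a1, the mitochondrial methylmalonate semialdehyde dehydrogenase of valine and thymine breakdown, was at 349, 339.8 and 336 CPM in the AdipoRonPEG5 libraries, 400.2, 352 and 425 CPM in the AdipoRon libraries, and 449, 421 and 319 CPM in the vehicle libraries. Vehicle 3 was the lowest of the 9 and the other vehicle libraries lay above all AdipoRonPEG5 ones. Its log2 fold change against vehicle was -0.21 (95% confidence interval -0.49 to 0.059, Benjamini-Hochberg adjusted p = 0.271 in edgeR). It was -0.35 and passed without vehicle 3 (adjusted p = 0.024), and -0.36 without vehicle 3 and AdipoRonPEG5 1 together (adjusted p = 0.0475).

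The remaining members differed little between the groups. Aldh7a1, which oxidizes the semialdehyde of lysine breakdown, was at 509 to 554 CPM in AdipoRonPEG5, 482 to 553 CPM in AdipoRon and 476 to 553 CPM in vehicle livers. Aldh8a1, a cytosolic enzyme of the kynurenine pathway of tryptophan, was at 327 to 345 CPM in AdipoRonPEG5, 338 to 347 CPM in AdipoRon and 326 to 364 CPM in vehicle livers. Aldh9a1, which acts in carnitine synthesis, was at 263 to 321 CPM in AdipoRonPEG5, 235 to 288 CPM in AdipoRon and 247 to 290.4 CPM in vehicle livers. The ranges of all 3 genes overlapped between all groups. Their 95% confidence intervals for AdipoRonPEG5 against vehicle, in log2, were -0.19 to 0.22 for Aldh7a1, -0.23 to 0.11 for Aldh8a1 and -0.18 to 0.31 for Aldh9a1, which leaves no room for the change fitted for Aldh1a1.

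Against vehicle, AdipoRon itself moved no member past the threshold. The count was 0 of 10 in edgeR's quasi-likelihood test, DESeq2 and limma-voom alike. At the same adjusted threshold edgeR called 5.2% of all genes, 3.8% higher and 1.4% lower, so 0 of 10 is near that share. In edgeR 0 members had an unadjusted p under 0.05, a threshold at which no share over all genes was taken. The fitted log2 fold changes ran from -0.16 for Aldh4a1 (edgeR Benjamini-Hochberg adjusted p = 0.377) to 0.044 for Aldh3a2. For Aldh1a1 the value was -0.026, with a 95% confidence interval of -0.48 to 0.43, and for Aldh1a7 it was -0.077, with an interval of -0.34 to 0.19. No member had AdipoRon and vehicle libraries that did not overlap, whereas 26.8% of all genes did. The interval of Aldh3a2 was -0.68 to 0.77, so a change of 1.5-fold in either direction was not detectable there.

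The compounds, with 1 labelled dose and treatment time for both, differed in Aldh1a1 and Aldh1a7. Of 10 members, 2 rose and 0 fell with AdipoRonPEG5 against AdipoRon, where 5.39% of all genes were called, 2.68% higher and 2.71% lower. Aldh1a1 was 2.24-fold higher (log2 1.17 ± 0.21 (SE), 95% confidence interval 0.70 to 1.63, Benjamini-Hochberg adjusted p = 0.0134 in edgeR). Aldh1a7 was 1.49-fold higher (log2 0.58 ± 0.12 (SE), 95% confidence interval 0.31 to 0.85, edgeR adjusted p = 0.0228). The call of Aldh1a1 ended without AdipoRonPEG5 3 (1.13, adjusted p = 0.0507). The call of Aldh1a7 ended without AdipoRonPEG5 1 (0.58, adjusted p = 0.0663), AdipoRonPEG5 2 (0.60, adjusted p = 0.0716), AdipoRonPEG5 3 (0.56, adjusted p = 0.0744) or AdipoRon 3 (0.61, adjusted p = 0.0622). This comparison shares its AdipoRonPEG5 libraries with the one against vehicle, so the values are set side by side and not counted as separate support.

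For 6 members, Aldh1a1, Aldh1a7, Aldh1b1, Aldh2, Aldh4a1 and Aldh6a1, the AdipoRonPEG5 and AdipoRon libraries did not overlap, as was so for 28.2% of all genes. Against vehicle this held for 3 members, Aldh1a1, Aldh1a7 and Aldh4a1, and for 35.2% of all genes. The log2 differences between the compounds that did not pass were -0.33 for Aldh1b1 (edgeR Benjamini-Hochberg adjusted p = 0.189), -0.24 for Aldh4a1 (95% confidence interval -0.45 to -0.032, adjusted p = 0.168), -0.20 for Aldh6a1, -0.16 for Aldh2 and 0.31 for Aldh3a2 (-0.42 to 1.03). Those of Aldh7a1, Aldh8a1 and Aldh9a1 were 0.026, -0.034 and 0.092.

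**Figure D2:**
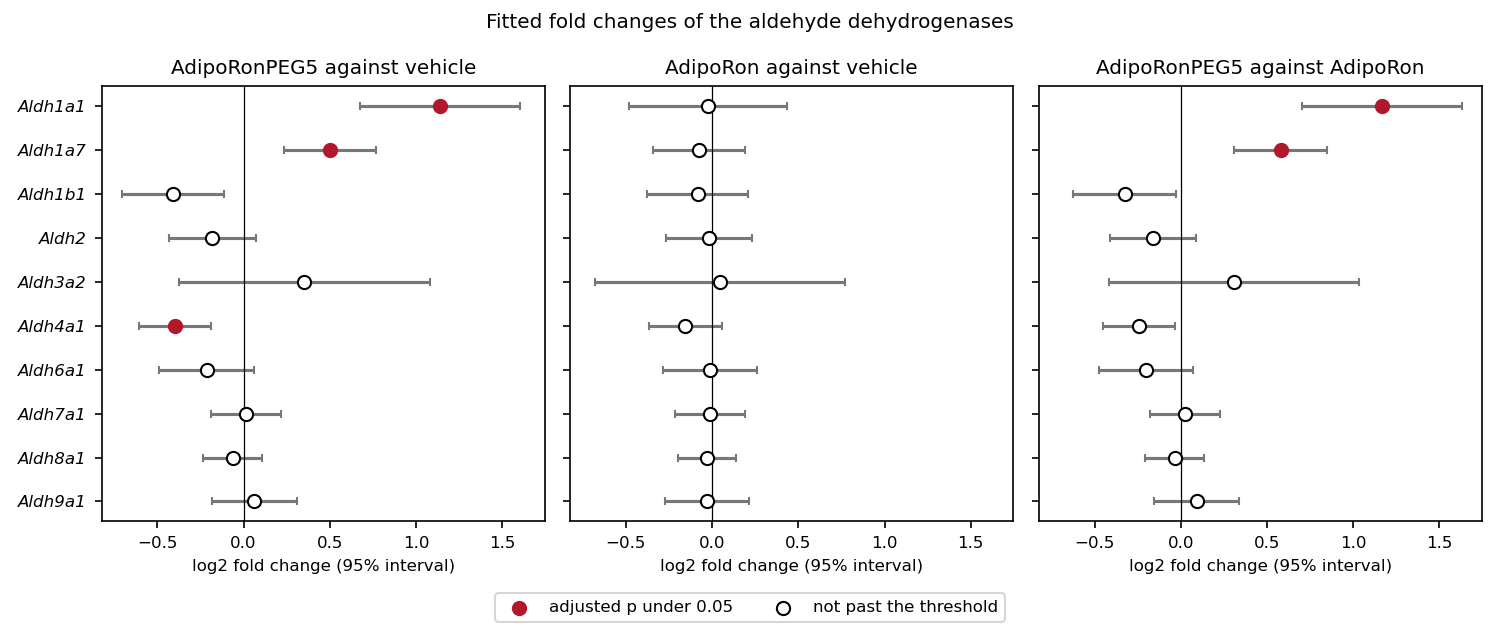
Fitted log2 fold change (x axis) of the 10 genes in the 3 comparisons, with 95% confidence intervals; filled points passed an adjusted p of 0.05. Aldh1a1, at 1.14 and 1.17, and Aldh1a7, at 0.50 and 0.58, stand to the right of 0 in both AdipoRonPEG5 panels, Aldh4a1 at -0.40 is filled against vehicle only, and all intervals of AdipoRon against vehicle hold 0.

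Levels of different genes were compared per length, in the deposited FPKM, and are described with no test. In AdipoRonPEG5 livers Aldh1a1 came first, at 1417 ± 31.8 FPKM (SD, n = 3), above Aldh2 at 633 ± 1.14 FPKM. In AdipoRon livers Aldh2 averaged 716 ± 49.3 FPKM and Aldh1a1 639 ± 129.6 FPKM, and in vehicle livers Aldh2 averaged 679 ± 108 FPKM and Aldh1a1 611 ± 204 FPKM. The ranges of these 2 genes overlapped in AdipoRon and vehicle livers and not in AdipoRonPEG5 livers. Among all entries of the table, Aldh1a1 ranked 44 to 49 by FPKM in AdipoRonPEG5, 85 to 130 in AdipoRon and 84 to 183 in vehicle livers.

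Below these 2 genes the levels were closer. In AdipoRonPEG5 livers the order was Aldh3a2 (166 FPKM), Aldh7a1 (129.9 FPKM), Aldh8a1 (126 FPKM), Aldh1a7 (105 FPKM), Aldh6a1 (104 FPKM), Aldh9a1 (102 FPKM), Aldh4a1 (45.4 FPKM) and Aldh1b1 (15.2 FPKM). Aldh7a1 and Aldh8a1 overlapped, as did Aldh1a7, Aldh6a1 and Aldh9a1 each with the next. In vehicle livers Aldh8a1, Aldh3a2, Aldh7a1, Aldh6a1 and Aldh9a1 lay between 124 and 92.8 FPKM, and each overlapped the next. Aldh1a7 followed at 70.2 FPKM, overlapping Aldh4a1 at 56.5 FPKM, and Aldh1b1 was at 19.1 FPKM. Aldh4a1 and Aldh1b1 were the lowest members in every group, and their ranges did not overlap each other in any.

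Over 21 genes of the family, the 10 members and 11 others, the summed level was 3057 to 3155 FPKM in AdipoRonPEG5, 2118 to 2671 FPKM in AdipoRon and 1817 to 2664 FPKM in vehicle livers. The AdipoRonPEG5 sums lay above all others. Aldh1a1 made up 45.4% to 46.0% of the sum in AdipoRonPEG5, 24.1% to 28.8% in AdipoRon and 21.9% to 30.2% in vehicle livers. Aldh2 made up 20.05% to 20.8% in AdipoRonPEG5, 28.6% to 31.4% in AdipoRon and 28.0% to 30.8% in vehicle livers, and the 10 members together 84.3% to 91.7% in any library. Shares of a sum move together, so the lower share of Aldh2 is no measure of its own level.

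**Figure D3:**
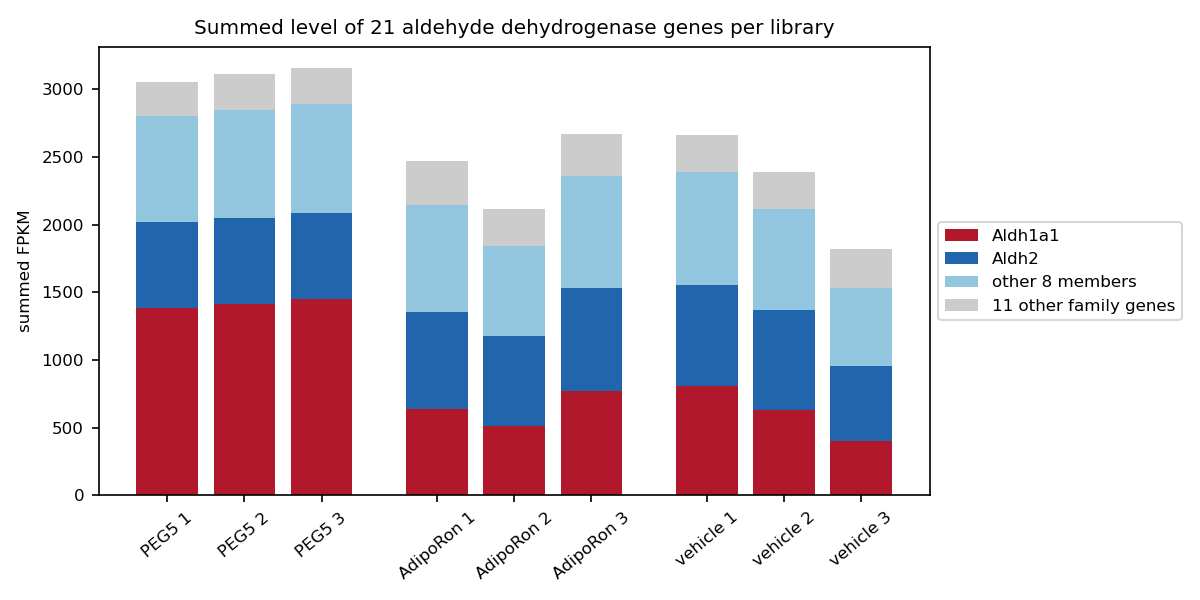
Summed FPKM of 21 aldehyde dehydrogenase genes in each library (y axis from 0), split into Aldh1a1, Aldh2, the other 8 members and 11 further genes. The AdipoRonPEG5 bars reach 3057 to 3155 FPKM, the AdipoRon bars 2118 to 2671 FPKM and the vehicle bars 1817 to 2664 FPKM, and the Aldh1a1 segment is the largest in each AdipoRonPEG5 bar.

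Of the 11 family genes outside the 10, only 6 had enough counts to be tested; with AdipoRonPEG5 against vehicle 2 rose and 0 fell. Aldh1l2, the mitochondrial formyltetrahydrofolate dehydrogenase, was near the floor, at 14, 35 and 42 counts in the AdipoRonPEG5 libraries, 5, 8 and 2 counts in the AdipoRon libraries, and 12, 4 and 4 counts in the vehicle libraries, of which vehicle 1 was the deepest. It rose with AdipoRonPEG5 against vehicle (log2 fold change 2.51, edgeR Benjamini-Hochberg adjusted p = 0.00524). Aldh3b1, which acts on medium and long chain aldehydes, was at 4.57, 6.07 and 6.10 CPM in the AdipoRonPEG5 libraries, 4.26, 2.39 and 2.39 CPM in the AdipoRon libraries, and 2.01, 1.94 and 2.08 CPM in the vehicle libraries. It rose by 1.47 on the log2 scale with AdipoRonPEG5 against vehicle (edgeR adjusted p = 0.00281). Macrophage markers were higher than in vehicle livers with both compounds, and 0 of these 6 genes passed with AdipoRon against vehicle. The part of the macrophage markers in the value of Aldh3b1 was not tested. Aldh1l1, the abundant cytosolic formyltetrahydrofolate dehydrogenase, was at 219.6 to 231 FPKM in AdipoRonPEG5, 247 to 298 FPKM in AdipoRon and 239 to 256 FPKM in vehicle livers, and its log2 fold change against vehicle of -0.20 did not pass (edgeR adjusted p = 0.176). Aldh3a1, a gene known for induction by aryl hydrocarbon receptor ligands, had 0 counts in every library, which allows up to 3 counts in each.

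The genes that act beside the members were taken from 10 lists, holding 131 tested genes. With AdipoRonPEG5 against vehicle 11 of them rose (8.4%) and 23 fell (17.6%), where 9.55% of all genes were called higher and 7.63% lower. Their median log2 fold change was -0.075, against -0.0013 over all genes tested, and nothing particular to the lists was tested. With AdipoRon against vehicle 0 passed in edgeR's quasi-likelihood test, where 5.2% of all genes did. DESeq2 called 4 of the 131, where it called 1016 of all genes, and limma-voom 0, where it called 736. In edgeR 23 had an unadjusted p under 0.05, a threshold at which no share over all genes was taken. With AdipoRonPEG5 against AdipoRon 7 rose (5.34%) and 11 fell (8.4%), where 2.68% of all genes were called higher and 2.71% lower.

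Among other enzymes that oxidize or reduce aldehydes and ketones, 5 of 9 rose and 1 fell with AdipoRonPEG5 against vehicle, with a list median of 0.78 in log2. The carbonyl reductase Cbr3 was at 5.43, 7.01 and 7.65 CPM in the AdipoRonPEG5 libraries, 0.802, 0.778 and 0.615 CPM in the AdipoRon libraries, and 0.411, 0.673 and 0.298 CPM in the vehicle libraries (log2 fold change against vehicle 3.89, edgeR adjusted p = 2.24e-05). Its relative Cbr1 was at 158, 171 and 175 CPM in the AdipoRonPEG5 libraries, against 88.3, 87.7 and 59.7 CPM in the vehicle libraries (1.09, adjusted p = 0.000591). The aldehyde oxidase Aox1 was at 157, 182 and 188 CPM in the AdipoRonPEG5 libraries, against 89.5, 77.7 and 48.4 CPM in the vehicle libraries (1.28, adjusted p = 0.00177). In all 3 genes no AdipoRonPEG5 library overlapped a vehicle library. Cbr3 was near the floor in vehicle livers (3 counts are 0.207 CPM in vehicle 3), so the size of its change is less certain.

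Among alcohol dehydrogenases and other acetaldehyde genes, 2 of 10 rose and 1 fell, with a median of -0.011. The aldehyde reductase Akr1a1 rose (log2 fold change 0.48, edgeR Benjamini-Hochberg adjusted p = 0.00603), as did Adh1, the main ethanol-oxidizing enzyme (0.46, adjusted p = 0.0362), and Adh7, the class IV enzyme, fell (-0.60, adjusted p = 0.0162). The call of Adh1 ended without any 1 of the AdipoRonPEG5 libraries (adjusted p up to 0.104, at 0.43 without AdipoRonPEG5 3). That of Adh7 ended without AdipoRonPEG5 1, AdipoRonPEG5 3 or vehicle 2 (adjusted p up to 0.0654, at -0.52 without vehicle 2). Of 21 genes of retinoid metabolism, in which Aldh1a1 acts, 0 rose and 3 fell, with a median of -0.043. The retinol dehydrogenase Rdh7 was at 1084, 1114 and 1083 CPM in the AdipoRonPEG5 libraries, against 1582, 1549 and 1397 CPM in the vehicle libraries (-0.46, edgeR adjusted p = 0.00572). The other falls, of the plasma retinol carrier Rbp4 (-0.31, adjusted p = 0.0439) and of 1300002K09Rik, an older symbol of the retinol-binding protein receptor Stra6l (-0.42, adjusted p = 0.0254), were less stable. The call of Rbp4 ended without any 1 library other than vehicle 3 (adjusted p up to 0.151, at -0.28 without vehicle 2). That of 1300002K09Rik ended without AdipoRonPEG5 2, AdipoRonPEG5 3, vehicle 2 or vehicle 3 (up to 0.0877, at -0.33 without AdipoRonPEG5 3). Of 16 partners in the oxidation of fatty aldehydes and lipids, 1 rose and 1 fell, with a median of -0.013. They were Ehhadh of peroxisomal oxidation (0.77, adjusted p = 0.0383) and the fatty acid hydroxylase Cyp4v3 (-0.35, adjusted p = 0.0462). The call of Ehhadh ended without vehicle 2 or any 1 of the AdipoRonPEG5 libraries (up to 0.137, at 0.62 without AdipoRonPEG5 3). That of Cyp4v3 ended without any 1 library other than AdipoRon 2 and vehicle 3 (up to 0.149, at -0.28 without AdipoRonPEG5 1).

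In proline and hydroxyproline breakdown, the pathway of Aldh4a1, 0 of 10 genes rose and 3 fell, with a median of -0.11. Prodh, the proline dehydrogenase that makes the substrate of Aldh4a1, was at 236.5, 236.1 and 212 CPM in the AdipoRonPEG5 libraries, against 331, 308 and 295 CPM in the vehicle libraries (log2 fold change -0.45, edgeR Benjamini-Hochberg adjusted p = 0.00955). Prodh2, the hydroxyproline dehydrogenase, was at 247, 251 and 249 CPM in the AdipoRonPEG5 libraries, against 343, 359 and 326 CPM in the vehicle libraries (-0.46, adjusted p = 0.00369). Gls2, the liver glutaminase, fell by 0.45 on the log2 scale (adjusted p = 0.00853). The AdipoRonPEG5 libraries of Prodh and Prodh2, like those of Aldh4a1, lay below all vehicle libraries.

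Of 12 genes of the tryptophan and kynurenine pathway, that of Aldh8a1, 0 rose and 2 fell, with a median of -0.075. Haao, which opens the ring of hydroxyanthranilate, was at 426, 426 and 398 CPM in the AdipoRonPEG5 libraries, against 639, 651 and 659.6 CPM in the vehicle libraries (log2 fold change -0.64, edgeR Benjamini-Hochberg adjusted p = 0.00064). Kynu, the kynureninase, fell by 0.62 on the log2 scale (adjusted p = 0.00096), while Aldh8a1 itself was at -0.064. Of 26 genes of branched-chain amino acid and thymine breakdown, that of Aldh6a1, 0 rose and 5 fell, with a median of -0.18, and 9 fell without vehicle 3. Dpyd, the first enzyme of pyrimidine breakdown, was at -0.61 (adjusted p = 0.00333), the aminotransferase Bcat2 at -0.56 (0.0129) and Hsd17b10 at -0.60 (0.0154). The call of Bcat2 ended without AdipoRonPEG5 2 or vehicle 2 (up to 0.0504, at -0.52 without vehicle 2). That of Hsd17b10 ended without AdipoRonPEG5 2, AdipoRonPEG5 3 or vehicle 1 (up to 0.0589, at -0.58 without AdipoRonPEG5 2). Of 10 genes of lysine breakdown, that of Aldh7a1, 0 rose and 3 fell, with a median of -0.26. They were Gcdh, the glutaryl-CoA dehydrogenase (-0.37, adjusted p = 0.0262), Pipox, the pipecolate oxidase (-0.36, 0.0328), and the hydroxylysine kinase Hykk (-0.30, 0.0365). Each call ended with total-count scaling (adjusted p = 0.0935 for Gcdh, 0.114 for Pipox and 0.125 for Hykk), with a replicate block (0.0601, 0.0656 and 0.0694 in the same order), and without AdipoRonPEG5 2, vehicle 1 or vehicle 2, Gcdh also without AdipoRonPEG5 3, Hykk also without AdipoRonPEG5 1, and Pipox also without AdipoRonPEG5 1 or AdipoRonPEG5 3. The highest adjusted p without 1 library was 0.0886 for Gcdh (-0.33 without AdipoRonPEG5 3), 0.124 for Pipox and 0.127 for Hykk (-0.29 and -0.26 without vehicle 2).

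Of 11 genes of choline, betaine and carnitine metabolism, that of Aldh9a1, 1 rose and 4 fell, with a median of -0.12. Bhmt, which moves a methyl group from betaine to homocysteine, was at 897, 1187 and 1021 CPM in the AdipoRonPEG5 libraries, 2029, 1113 and 1975 CPM in the AdipoRon libraries, and 2245, 1983 and 2328 CPM in the vehicle libraries. Against vehicle, AdipoRonPEG5 livers had less (-1.08 in log2, edgeR adjusted p = 0.00531). AdipoRon 2 lay among the AdipoRonPEG5 values, and the other AdipoRon libraries lay above all of them. Dmgdh, the dimethylglycine dehydrogenase, was at -0.66 (adjusted p = 0.00233) and the glycine methyltransferase Gnmt at -0.53 (0.00718). Of 11 periportal hepatocyte genes examined beside these pathways, 0 rose and 6 fell with AdipoRonPEG5 against vehicle, and of 12 pericentral genes 1 rose and 2 fell. Their part in the values of the pathways was not tested.

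**Figure D4:**
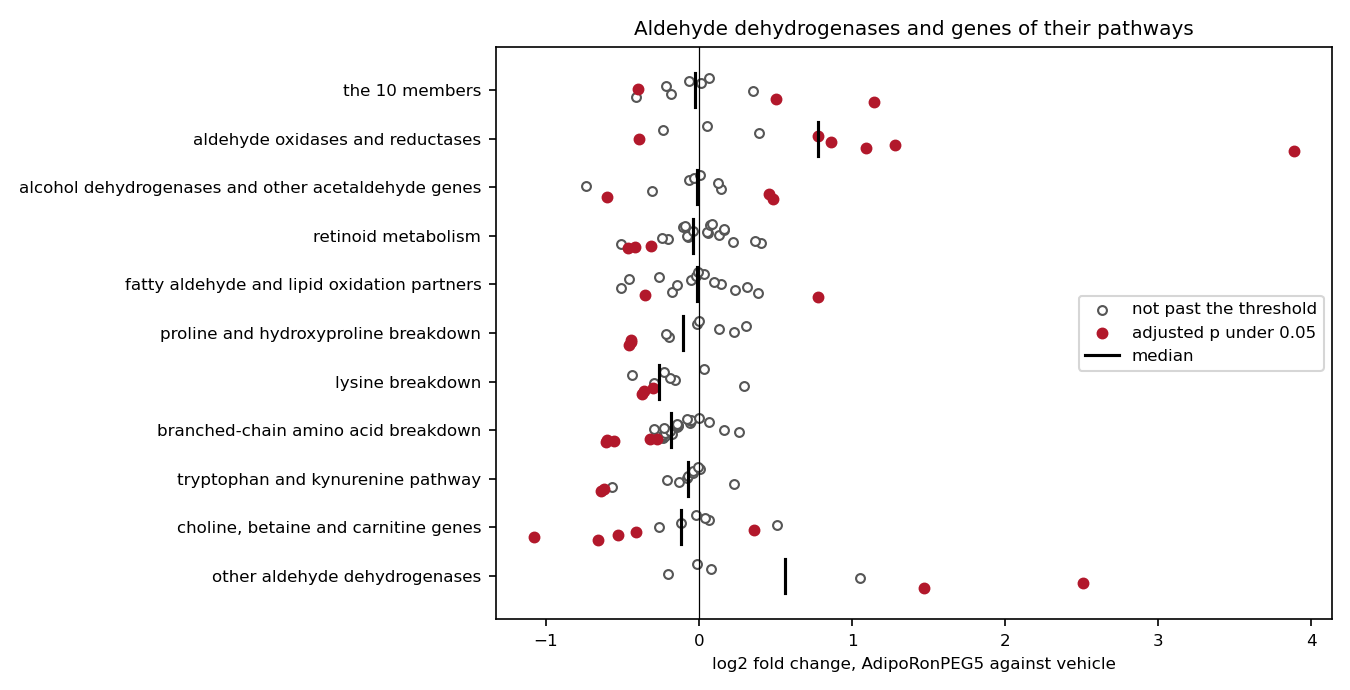
Log2 fold change with AdipoRonPEG5 against vehicle (x axis) of the 10 members and of each tested gene in 10 lists of related genes (rows), with the median of each row as a bar. Filled points passed an adjusted p of 0.05. The row of aldehyde oxidases and reductases has a median of 0.78 and 5 filled points to the right, Cbr3 at 3.89 farthest, and the amino acid rows have filled points to the left of 0.

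Likeness to Aldh1a1 was searched among tested genes other than the members, passing over unnamed gene models, pseudogene symbols and entries sharing a name. The 5 whose log2 CPM followed Aldh1a1 most closely over the 9 libraries were Cyp2a5 (Pearson r = 0.994), Pgrmc1 (0.99), Gsta4 (0.987), Akr1a1 (0.984) and Gsta2 (0.984). The libraries share their groups and their scaling, and these values describe likeness with no test. The genes were picked by this correlation, so a shared order of the libraries is partly built in. Cyp2a5, a cytochrome P450, was at 1943, 2187 and 2062 CPM in the AdipoRonPEG5 libraries, 628, 505 and 850.2 CPM in the AdipoRon libraries, and 1094, 769 and 362 CPM in the vehicle libraries. As with Aldh1a1, vehicle 1 was the highest and vehicle 3 the lowest of the vehicle libraries, and AdipoRon 3 the highest and AdipoRon 2 the lowest of the AdipoRon ones. The same order within both groups held for Pgrmc1, a membrane heme-binding protein, at 1556 to 1628 CPM in AdipoRonPEG5, 978 to 1225 CPM in AdipoRon and 972 to 1220 CPM in vehicle livers. Cyp2a5, Gsta4 and Gsta2 belong to gene families too. The bases they share with relatives were not measured, so their counts may not be fully separate.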

How the data were processed

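Liver RNA-seq of 9 libraries was deposited by the authors as raw read counts per gene symbol, per the file headers, with no normalization. FPKM values beside them were also made by the authors, per the file headers, and equal the count per gene length and library total. The submitters' processing notes name HTSeq 0.6.1, STAR 2.5 and TopHat, and also edgeR and DESeq2, without saying what each did. Genome build, annotation and strand are not stated.

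Counts were filtered with filterByExpr, scaled by TMM and fitted over all 9 libraries with edgeR 4.0.16 (quasi-likelihood test, Benjamini-Hochberg adjustment over 13151 genes), in R 4.3.3 with limma 3.58.1 and DESeq2 1.42.0. The fit was tested on simulated data for AdipoRonPEG5 against vehicle. Of 12996 genes fitted there, 67 were given a 1.5-fold change, 67 a 2-fold change and 66 a 4-fold change. The fit recovered 44.8% of simulated 1.5-fold changes, 83.6% of 2-fold changes and 97% of 4-fold changes. In the data 17.2% of all genes were called, and the adjusted p depends on how many genes change. The shares recovered are therefore not those of this comparison. Not passing alone was not taken to exclude a 1.5-fold change. Of the entries, 126 shared a name with another. Depths of 13942322 to 39473195 counts put every member far above the low counts, so spread between libraries and not counting sets the errors. Groups were taken from the labels. No 2 libraries of a group agreed within sampling noise.

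The members and lists were chosen with earlier results of these data known. Besides all 10 members, the text names up to 3 called genes of each pathway list, by lowest p. It also names the 5 genes most correlated with Aldh1a1, with unnamed gene models, pseudogene symbols and entries sharing a name passed over. The 19 alternatives were other scalings (RLE, total count), filters (none, a mean of 1 CPM), DESeq2, limma-voom, a fit of the 2 groups compared, a replicate block, thinning of vehicle 1, each library left out, and vehicle 3 and AdipoRonPEG5 1 left out. Sequences were read with Python 3.11.15 and Biopython 1.88, tables with pandas 2.3.3, and plots drawn with matplotlib 3.10.9.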

Additional observations from a re-analysis of the deposited data

How the results depend on the processing

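Of 190 values of the members in each comparison, 171 kept direction and call for AdipoRonPEG5 against vehicle, 162 for AdipoRon against vehicle and 183 for AdipoRonPEG5 against AdipoRon. None of the 36 values that changed sign passed, and the cause was not tested. For AdipoRonPEG5 against vehicle 6 changed sign: Aldh8a1 with total-count scaling (0.018), Aldh7a1 without vehicle 3 and AdipoRonPEG5 1 together (-0.019), and Aldh7a1 and Aldh9a1 each without AdipoRonPEG5 3 (-0.024 and -0.032) and without vehicle 3 (-0.052 and -0.0079). For AdipoRon against vehicle, total-count scaling gave Aldh1a1 0.066, Aldh1a7 0.023, Aldh1b1 0.014, Aldh2 0.077, Aldh6a1 0.082, Aldh7a1 0.087, Aldh8a1 0.069 and Aldh9a1 0.069, where it moved the median of all genes to 0.10, against 0.0057 with TMM. In the same comparison limma-voom gave Aldh1a1 0.018 and Aldh6a1 0.0039, and Aldh3a2 was -0.31 without vehicle 3 and AdipoRonPEG5 1.

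With 1 library left out in turn, AdipoRonPEG5 against vehicle ran from -0.052 to 0.052 for Aldh7a1 and from -0.032 to 0.12 for Aldh9a1. AdipoRon against vehicle ran from -0.25 to 0.19 for Aldh1a1, -0.20 to 0.048 for Aldh1a7, -0.22 to 0.018 for Aldh1b1, -0.13 to 0.034 for Aldh2, -0.31 to 0.37 for Aldh3a2, -0.15 to 0.077 for Aldh6a1, -0.082 to 0.032 for Aldh7a1 and -0.10 to 0.049 for Aldh9a1. AdipoRonPEG5 against AdipoRon ran from -0.021 to 0.073 for Aldh7a1. The number of members called was 1 (without AdipoRonPEG5 3) to 5 (without vehicle 3) for AdipoRonPEG5 against vehicle, 0 throughout for AdipoRon against vehicle, and 0 (without AdipoRonPEG5 3) to 2 for AdipoRonPEG5 against AdipoRon.

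Over all genes, the main fit called 2260 for AdipoRonPEG5 against vehicle, 684 for AdipoRon against vehicle and 709 for AdipoRonPEG5 against AdipoRon. DESeq2 called 2397, 1016 and 1008 in the same order. With 1 library left out, AdipoRonPEG5 against vehicle gave 1337 (without vehicle 2) to 2334 (without vehicle 3). AdipoRon against vehicle then gave 250 (without vehicle 2) to 624 (without vehicle 3). For AdipoRonPEG5 against AdipoRon the range was 233 (without AdipoRonPEG5 2) to 1032 (without vehicle 3). A fit of AdipoRon and vehicle alone called 325 genes. Total-count scaling called 1700 genes higher and 584 lower for AdipoRonPEG5 against vehicle, where TMM gave 1256 and 1004, and 883 and 64 for AdipoRon against vehicle, where TMM gave 500 and 184. Deviations of same-numbered libraries correlated at -0.27 to 0.077, and those of differently numbered ones at -0.30 to 0.32. No pairing by number showed, though 3 libraries a group cannot exclude it. With the replicate block, 1763 genes were called for AdipoRonPEG5 against vehicle, 338 for AdipoRonPEG5 against AdipoRon and 444 for AdipoRon against vehicle, and no call of a member changed. The block ended the calls of 8 named list genes: Adh1 (0.0765), Ehhadh (0.0797), Cyp4v3 (0.0630), Gcdh (0.0601), Pipox (0.0656), Hykk (0.0694), 1300002K09Rik (0.0555) and Rbp4 (adjusted p = 0.102). Of 27 named list genes, 16 were called in every alternative that tested them and 11 lost the call in at least 1.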
